A study of Mus musculus with 4 samples.

Results

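Collagen genes were taken from the arrays by name. A probe was a member when the gene name in the array files read Col, digits, a, digits, as in Col1a1 or Col9a3, and each gene was represented by its brightest tested probe. The rule found 44 collagen genes on 69 of 39429 probes. The array names 24252 genes in all, of which 18082 were tested. Of the collagen genes 38 were tested, and 6 (Col4a3, Col6a4, Col6a5, Col10a1, Col15a1 and Col19a1) were too dim on every probe to be tested. The rule used names and brightness only, and no difference between genotypes.

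Collagens are proteins in which 3 chains wind into a triple helix, and this helix needs glycine at regular steps along each chain, as the first residue of each Gly-X-Y triplet. Collagens I, III and V form the fibrils of mesenchyme, collagen IV forms the network of basement membranes, and collagens II, IX and XI form the fibrils of cartilage and, in the cochlea, those of the tectorial membrane, the sheet of extracellular matrix above the hair cells. In the tectorial membrane these fibrils lie in a matrix built from the tectorins.

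Each of the 4 dual-colour arrays held RNA of a Sox2-Tbx2LOF pool and of a control pool of organs of Corti, the sensory epithelium of the cochlea, from the basal part of the duct at E18.5. The genotype of the first was Sox2(creERT2);Tbx2(fl/fl) and that of the second Tbx2(fl/n.d.), where the labels leave the other allele of controls undetermined. The paper's breeding scheme mated Tbx2(fl/fl) parents, whose offspring would all be Tbx2(fl/fl). The labels do not say whether the controls came from that cross. Pools of both genotypes were of the NMRI strain, and their dams had received 4 mg of tamoxifen at E16.5. By the paper's methods, dams treated at this stage also received progesterone. CreERT2 is a recombinase that tamoxifen activates. It was expressed here from the Sox2 gene, so that recombination was limited to Sox2-expressing cells. The mothers in the breeding scheme were homozygous for a R26 mTmG reporter allele, which embryos of either genotype from that cross carry. Controls lacked the recombinase. Spiral ligament and spiral ganglia had been removed, and each pool held organs of several embryos of 1 sex. Arrays 1 and 2 compared female pools and arrays 3 and 4 male pools. The Sox2-Tbx2LOF pool carried the green dye Cy3 on arrays 1 and 3 and the red dye Cy5 on arrays 2 and 4, which gives n = 4 pools per genotype.

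The median spot signal was 346 to 412 in the Sox2-Tbx2LOF channel and 315 to 411 in the control channel, over a median local background of 31 to 33 in green and 68 to 80 in red. Across tested probes, pools of 1 genotype correlated with r = 0.997 to 0.999. Of 28104 tested probes 70 (0.249%) were called, that is, they passed both a limma adjusted p of 0.05 and a minimum fold of 1.5. The Tbx2 probe was lower by 0.15 (log2, 95% interval -0.26 to -0.05, limma adjusted p = 0.313), and the array files do not say whether it lies in the deleted part of the gene. Markers of cochlear epithelium (6 of 6 genes), mesenchyme (7 of 7), cartilage (7 of 8), endothelium and pericytes (6 of 6) and glia (3 of 3) were well above background. Transcripts of several cell types besides the sensory epithelium were thus present, and in bulk RNA fewer cells of a type and less RNA per cell cannot be told apart.

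The probes are 60 bases long, and a few of them lie in the part of a transcript that encodes the triple helix. They are shown because the glycine repeat that defines the family can be read in them directly. Capitals mark codons of the form GGN, which encode glycine, at a spacing of 9 bases, and a probe is shown when it holds at least 4 in a row. Such a run was found in 4 of 69 collagen probes (5.8%) and in 39 of 39429 probes overall (0.0989%). The search used the strand printed by the array files, 5′ to 3′, and each match says only that these letters recur.
Col14a1 probe A_55_P2159522, mm9 chr15:55347733-55347792, plus strand: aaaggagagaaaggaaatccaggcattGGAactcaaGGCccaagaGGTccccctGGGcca
Col15a1 probe A_55_P2060386, mm9 chr4:47283786-47283845, plus strand: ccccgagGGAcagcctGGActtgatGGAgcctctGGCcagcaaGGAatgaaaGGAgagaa
Col16a1 probe A_55_P2056735, mm9 chr4:129756457-129756516, plus strand: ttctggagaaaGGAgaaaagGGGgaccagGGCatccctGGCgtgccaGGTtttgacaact
Col25a1 probe A_55_P2107711, mm9 chr3:130270497-130270556, plus strand: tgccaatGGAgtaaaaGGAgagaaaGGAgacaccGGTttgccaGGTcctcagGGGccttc

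The 4 probes hold 4, 6, 5 and 6 glycine codons in a row. Col14a1 and Col16a1 encode collagens that bind to the surface of fibrils, Col15a1 encodes a basement membrane collagen and Col25a1 a transmembrane collagen. The Col15a1 probe was dim. The other 3 were tested, with log2 ratios of Sox2-Tbx2LOF over control of 0.12, -0.04 and 0.05, and the brightest probes of the same 3 genes gave 0.16, -0.01 and 0.02.

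No collagen gene was called, where 0.304% of all genes were. Without the minimum fold, 1 of 38 collagen genes had a limma adjusted p under 0.05, which is 2.63% of them and lies beside 1.25% of all genes. This was Col28a1. At an unadjusted limma p under 0.05, 9 collagen genes (23.7%) were higher and 2 (5.26%) lower, beside 4.09% and 4.25% of all genes. Significance Analysis of Microarrays (SAM), the test named in the methods of the study, called 0 collagen genes on the same values.

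Differences were small throughout. The 95% interval of the log2 ratio lay inside a 1.5-fold change in either direction for all 38 tested genes, each interval being taken for its gene alone. The median log2 ratio over the 38 genes was 0.07, with extremes at -0.25 and 0.42, while the median of all genes was 0.00 and the middle 90% of all genes lay between -0.11 and 0.11. The ratio was above 0 in the mean for 29 collagen genes (76.3%) and for 52.3% of all genes. It was above 0 on 4 of 4 arrays for 8 collagen genes (21.1%) beside 4.72% of all genes, and below 0 on 4 of 4 arrays for 2 (5.26%) beside 4.92%. The 8 genes were Col1a1, Col3a1, Col6a1, Col8a1, Col11a2, Col24a1, Col27a1 and Col28a1, and the 2 genes were Col4a4 and Col22a1. In Col11a2 the ratio of array 2 was 0.00 after rounding.

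**Figure D1:**
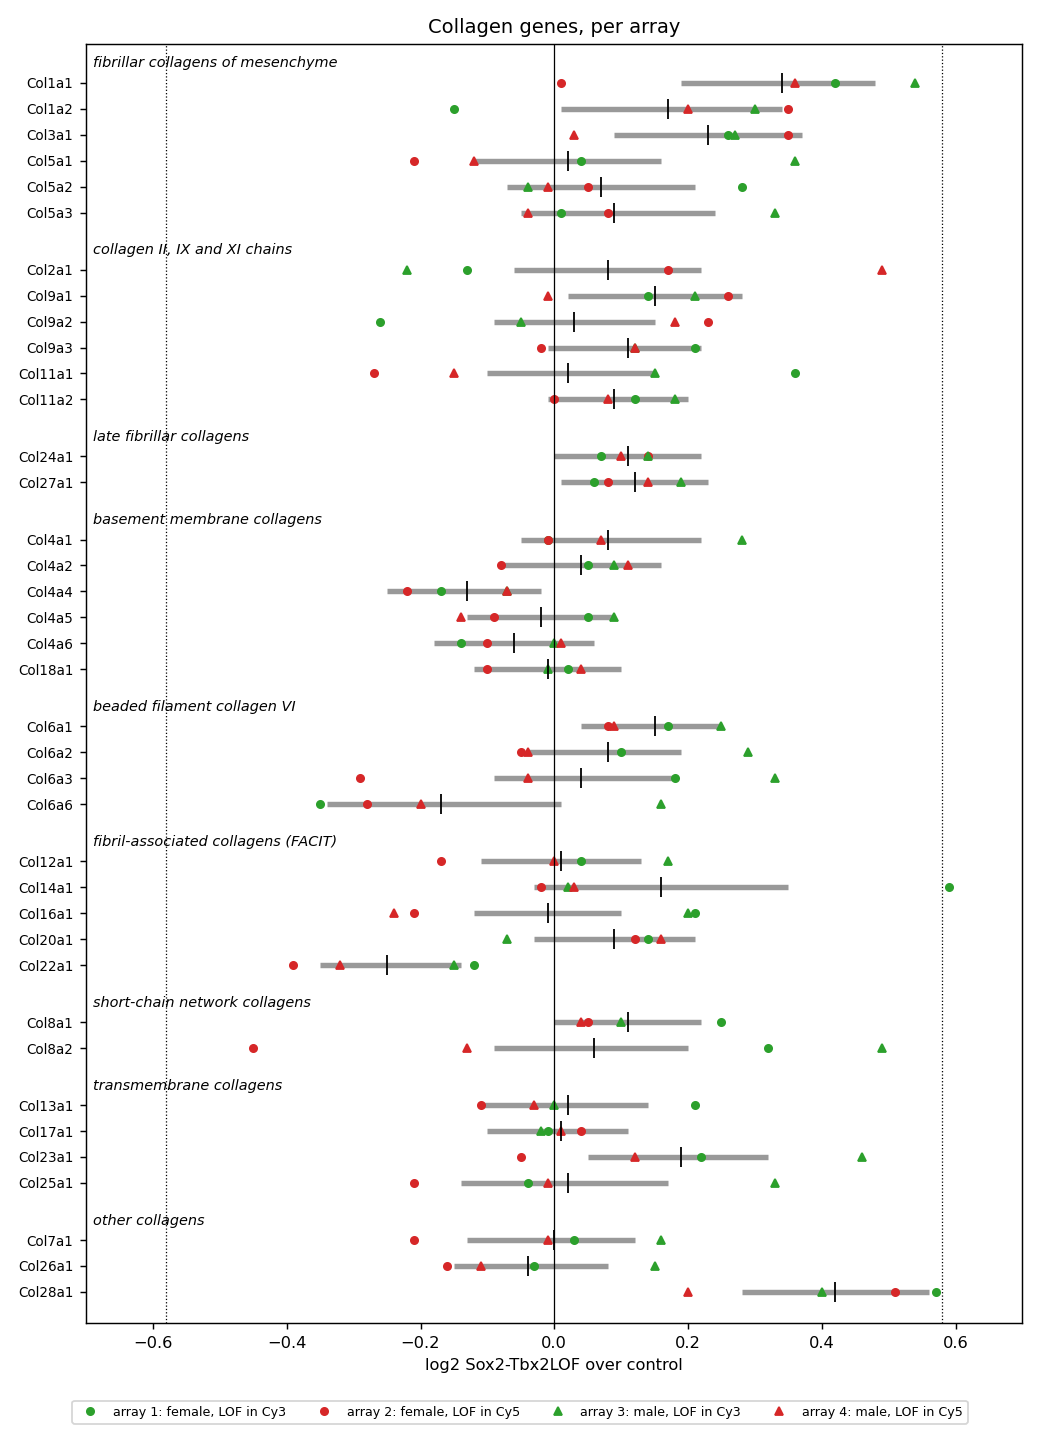
Log2 ratio of Sox2-Tbx2LOF over control (x axis) for the 38 tested collagen genes, grouped by class. Green and red symbols are arrays with the Sox2-Tbx2LOF pool in Cy3 and Cy5, circles are female and triangles male pools, black ticks are means, grey bars are 95% limma intervals from the fit with the dye term and dotted lines mark a 1.5-fold change. Col28a1 has the highest mean (0.42) and Col22a1 the lowest (-0.25), and no grey bar reaches a dotted line.

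Col28a1, which encodes a collagen known from peripheral nerve, gave log2 channel levels of 7.14, 7.16, 7.30 and 7.14 in Sox2-Tbx2LOF pools on arrays 1 to 4. The paired control levels were 6.57, 6.65, 6.89 and 6.95. All Sox2-Tbx2LOF pools thus lay above all control pools. The log2 ratios were 0.57, 0.51, 0.40 and 0.20, with a mean of 0.42 (SE 0.0630, 95% interval 0.28 to 0.56, 1.34-fold, limma adjusted p = 0.0191). Its probe lies on chromosome 6 (mm9 chr6:7947808-7947867, minus strand) at base 4170 of the transcript, and the array files do not give the exon. It was dim, as its signal stood well above background in 4 Sox2-Tbx2LOF pools and in 3 control pools, and the offset of 50 that was added to all signals pulls such ratios towards 0. With an offset of 10 the log2 ratio was 0.62 (adjusted p = 0.00781) and the gene was called. Without array 1 the log2 ratio was 0.38 and the adjusted p rose to 0.0843. Over 13 alternative settings the log2 ratio ranged from 0.34 to 1.02 and the adjusted p from 0.000393 to 0.479, with 7 settings under 0.05. Of 13 other tested probes within 1 Mb none was called or had an adjusted p under 0.05. The 3 glial markers reported here, Sox10, Foxd3 and Erbb3, had log2 ratios between -0.05 and 0.04 with a median of 0.02. Their summed level was 24247 to 26300 in Sox2-Tbx2LOF and 23417 to 26479 in control pools. This sum mostly follows the Sox10 probe. Its mean log2 level in Sox2-Tbx2LOF pools was 14.51, against 10.64 for Foxd3 and 8.75 for Erbb3. How much of the Sox10 signal came from glia was not measured. The part of glia in the Col28a1 difference was not tested.

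Pools of the 2 genotypes did not overlap for 6 collagen genes. Besides Col28a1 these were Col3a1, Col24a1 and Col27a1, where Sox2-Tbx2LOF pools lay above (4 genes, 10.5%, beside 1.42% of all genes), and Col4a4 and Col22a1, where they lay below (2 genes, 5.26%, beside 1.58%). Only Col28a1 of them passed the adjusted threshold.

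**Figure D2:**
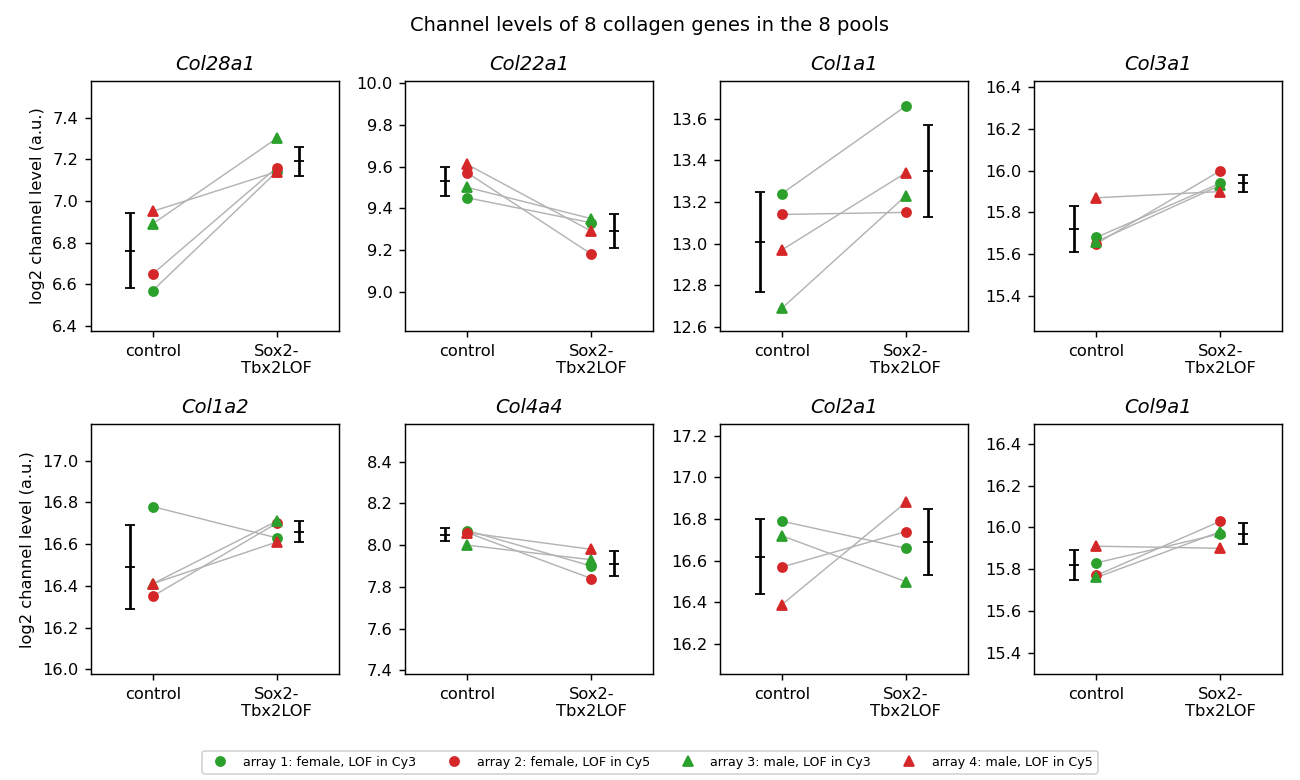
Log2 channel levels (arbitrary units, y axis, each panel spanning the same range) of 8 collagen genes in control and Sox2-Tbx2LOF pools. Lines join the pools of 1 array, symbols are as for the ratios, and bars show mean and SD over 4 pools. Levels do not overlap between genotypes for Col28a1, Col22a1, Col3a1 and Col4a4, and they overlap for Col1a1, Col1a2, Col2a1 and Col9a1.

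Of the 6 fibrillar collagens of mesenchyme none had an adjusted p under 0.05. All 6 mean ratios were above 0, with a median of 0.13, and the median over the 6 genes was 0.15, 0.07, 0.31 and 0.01 on arrays 1 to 4. Col1a1 and Col1a2 encode the chains of collagen I, the main protein of bone and connective tissue. Col1a1 gave log2 channel levels of 13.66, 13.15, 13.23 and 13.34 in Sox2-Tbx2LOF and 13.24, 13.14, 12.69 and 12.97 in control pools. The levels of the genotypes overlapped, but within each array the Sox2-Tbx2LOF pool was the higher. The ratios were 0.42, 0.01, 0.54 and 0.36, with a mean of 0.34 (95% interval 0.19 to 0.48, 1.26-fold, limma adjusted p = 0.0614). The adjusted p was 0.122, 0.00177, 0.233 and 0.0977 without arrays 1, 2, 3 and 4, and over 14 alternative settings it ran from 0.00177 to 0.895, with 3 of them under 0.05. Its partner Col1a2 gave -0.15, 0.35, 0.30 and 0.20, with a mean of 0.17 (adjusted p = 0.673), so that the array with the lowest ratio was not the same for both chains.

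Col3a1 encodes collagen III, which joins collagen I in soft tissue. Its log2 channel levels were 15.94, 16.00, 15.93 and 15.90 in Sox2-Tbx2LOF and 15.68, 15.65, 15.66 and 15.87 in control pools. The control pool of array 4 was the highest of the controls and came close to the Sox2-Tbx2LOF pools. The ratios were 0.26, 0.35, 0.27 and 0.03, with a mean of 0.23 (95% interval 0.09 to 0.37, adjusted p = 0.207). The adjusted p was 0.482, 0.746, 0.476 and 0.0250 without arrays 1, 2, 3 and 4, and the last was the only value under 0.05 over 14 alternative settings. The chains of collagen V, which starts fibrils and limits their width, gave means of 0.02 (Col5a1), 0.07 (Col5a2) and 0.09 (Col5a3), each with an interval that spans 0. Col5a2 lies beside Col3a1 on chromosome 1, with 0.0256 Mb between their probes.

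Signs of other cells and of position were looked up for these genes. Of 7 mesenchymal markers, 4 were higher and 3 lower in the mean, with a median of 0.05. Their summed level was 62623 to 68647 in Sox2-Tbx2LOF and 62035 to 72021 in control pools. Among them Meox1, a transcription factor of somitic mesoderm, gave -0.22, -0.30, -0.15 and -0.18 (limma adjusted p = 0.116). Of 5 bone markers 3 were tested, and Ibsp and Bglap, which encode proteins of mineralised bone, were not well above background. Sp7, a transcription factor of osteoblasts, gave 0.21, -0.02, 0.31 and 0.11 (adjusted p = 0.379). Alpl, a phosphatase needed for mineralisation, gave 0.41, -0.09, 0.31 and 0.06 (adjusted p = 0.279). Runx2, a transcription factor of early osteoblasts, gave 0.00, -0.07, -0.05 and -0.17, with a mean of -0.07. Of these 3 bone markers 2 were higher and 1 lower in the mean, with a median of 0.15. The summed level of the 3 bone markers was 2138 to 2653 in Sox2-Tbx2LOF and 1981 to 2292 in control pools. Their part in the Col1a1 difference was not tested.

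Col1a1 lies on chromosome 11 (mm9 chr11:94813115-94813174), 9.16 Mb from Tbx2 and 0.317 Mb from Tac4, a gene for a tachykinin peptide. Tac4 was called, with ratios of 0.82, 0.56, 0.64 and 0.43 and a mean of 0.61 (limma adjusted p = 0.00100). The median ratio of the 62 other tested probes within 1 Mb of Col1a1 was 0.01, and 1 of them, that of Tac4, was called. The collagen gene nearest to Sox2, which carried the recombinase, was Col11a1 at 79.4 Mb.

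Collagens II, IX and XI differed little. All 6 tested genes had means above 0, between 0.02 and 0.15, none had an adjusted p under 0.05, and the median over genes was 0.13, 0.09, 0.13 and 0.10 on arrays 1 to 4. For the 3 genes typical of the tectorial membrane, Col2a1, Col9a1 and Col11a2, the median was 0.09. Col2a1 encodes the chain of collagen II, and its ratios were -0.13, 0.17, -0.22 and 0.49, with a mean of 0.08 (95% interval -0.06 to 0.22). The gene was higher in whichever pool carried Cy5, on all 4 arrays. Col9a1 encodes a chain of collagen IX, which coats collagen II fibrils. It gave 0.14, 0.26, 0.21 and -0.01, with a mean of 0.15 (95% interval 0.02 to 0.28, adjusted p = 0.541). Col11a2 encodes a chain of collagen XI, which lies within collagen II fibrils, and gave 0.12, 0.00, 0.18 and 0.08, with a mean of 0.09 (95% interval -0.01 to 0.20). The means of Col9a2, Col9a3 and Col11a1 were 0.03, 0.11 and 0.02, with intervals that span 0.

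Cartilage markers bear on these genes, since chondrocytes express collagens II, IX and XI. Matn1, which encodes a matrix protein of cartilage, gave 0.14, 0.08, -0.03 and 0.39 (limma adjusted p = 0.692). The median of the 7 tested cartilage markers was 0.04, and their summed level was 60765 to 63619 in Sox2-Tbx2LOF and 52516 to 61690 in control pools. This sum mostly follows Cnmd and Matn1, with mean log2 levels of 15.55 and 13.69 in Sox2-Tbx2LOF pools. The other tested cartilage markers were dim, between 6.87 (Comp) and 7.97 (Chad). Their part in the small ratios of collagens II, IX and XI was not tested.

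Of the glycoproteins of the tectorial membrane, Tectb, which encodes beta-tectorin, was higher on all arrays, with ratios of 0.60, 0.95, 0.74 and 0.48 and a mean of 0.69 (95% interval 0.52 to 0.86, limma adjusted p = 0.00333). Its interval lay above those of Col2a1, Col9a1 and Col11a2 without overlap. Tecta, which encodes alpha-tectorin, gave 0.05, -0.08, -0.12 and 0.11, with a mean of -0.01 (95% interval -0.13 to 0.12). A test of the difference between genes was not run.

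Ratios of the basement membrane collagens were centred on 0. Classes were not tested against each other. Of 8 genes on the array 6 were tested, 2 were higher and 4 lower in the mean, none had an adjusted p under 0.05, and the median over genes was 0.00, -0.09, 0.04 and 0.02 on arrays 1 to 4. Col4a1 and Col4a2 encode the chains of the collagen IV found in nearly all basement membranes and lie beside each other on chromosome 8. Col4a1 gave -0.01, -0.01, 0.28 and 0.07, with a mean of 0.08 (95% interval -0.05 to 0.22). Col4a2 gave 0.05, -0.08, 0.09 and 0.11, with a mean of 0.04 (95% interval -0.08 to 0.16). Array 3 had the highest Col4a1 ratio and array 4 the highest Col4a2 ratio.

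The other collagen IV chains belong to specialised basement membranes. Col4a4 had ratios below 0 on all arrays, with log2 channel levels of 7.90, 7.84, 7.93 and 7.98 in Sox2-Tbx2LOF and 8.07, 8.06, 8.0 and 8.06 in control pools. The highest Sox2-Tbx2LOF pool lay just below the lowest control pool. These values rest on a single probe, as the other Col4a4 probes were too dim to be tested. The mean ratio was -0.13 (95% interval -0.25 to -0.02, adjusted p = 0.563). Its usual partner Col4a3 was not well above background on any array in either channel, while Col4a5 and Col4a6, which lie together on the X chromosome, gave means of -0.02 and -0.06. Col18a1, the source of endostatin, gave 0.02, -0.10, -0.01 and 0.04, with a mean of -0.01 (95% interval -0.12 to 0.10).

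**Figure D3:**
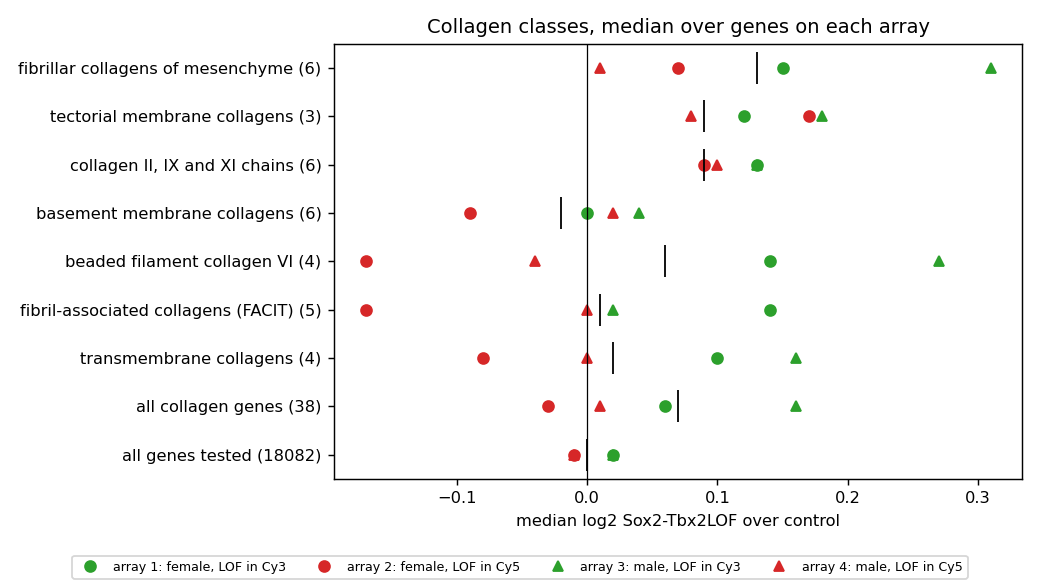
Median log2 ratio over the genes of a class on each array (x axis), with the number of tested genes in brackets. Symbols are as for the ratios and black ticks are medians of the gene means. The fibrillar class and the collagen II, IX and XI chains lie above 0 on all 4 arrays, and the basement membrane class lies between -0.09 and 0.04. The 3 tectorial membrane genes are among the collagen II, IX and XI chains. The late fibrillar class (Col24a1 and Col27a1) is not drawn and also lies above 0 on all 4 arrays (0.06, 0.11, 0.17 and 0.12).

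Among the fibril-associated collagens, which decorate fibrils, Col22a1 was the lowest of all collagen genes. This gene encodes a collagen of tissue junctions such as that between muscle and tendon. Its log2 channel levels were 9.33, 9.18, 9.35 and 9.29 in Sox2-Tbx2LOF and 9.45, 9.57, 9.50 and 9.61 in control pools. All Sox2-Tbx2LOF pools lay below all control pools. The ratios were -0.12, -0.39, -0.15 and -0.32, with a mean of -0.25 (95% interval -0.35 to -0.14, 0.842-fold, limma adjusted p = 0.0570). The 2 lowest ratios were those of the arrays with the Sox2-Tbx2LOF pool in Cy5. Over 14 alternative settings the adjusted p ran from 0.0386 to 0.368, and 1 of them, which averaged the probes of each gene, was under 0.05. Col22a1 has a single probe, so nothing was averaged for this gene in that setting. Col14a1 gave 0.59 on array 1 but -0.02, 0.02 and 0.03 on the other arrays, where the control level of array 1, 12.42, stood below the other control levels of 12.91 to 13.03. Without array 1 its fitted ratio was 0.01, against 0.16 with all arrays. Col12a1, Col16a1 and Col20a1 had means of 0.01, -0.01 and 0.09.

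Of the collagen VI chains, which build beaded filaments around cells, Col6a1 had ratios above 0 on all arrays (0.17, 0.08, 0.25 and 0.09), with a mean of 0.15 (95% interval 0.04 to 0.25, adjusted p = 0.354). Col6a2 and Col6a3, whose products assemble with it, had means of 0.08 and 0.04. Col6a6 gave -0.35, -0.28, 0.16 and -0.20, with a mean of -0.17 (adjusted p = 0.747), and was the collagen gene with the second lowest mean. Array 3 alone had a ratio above 0.

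Col24a1 and Col27a1 encode fibrillar collagens of later discovery, known from bone and cartilage. Both had small ratios of 1 sign, 0.07, 0.14, 0.14 and 0.10 for Col24a1 and 0.06, 0.08, 0.19 and 0.14 for Col27a1, with means of 0.11 and 0.12 and adjusted p of 0.662 and 0.654. Col23a1, a transmembrane collagen, gave 0.22, -0.05, 0.46 and 0.12, with a mean of 0.19 (95% interval 0.05 to 0.32, adjusted p = 0.333). Only Col28a1, Col1a1 and Col3a1 had a higher mean among the 38 genes, and its 3 tested probes gave 0.10, 0.15 and 0.19. The other transmembrane collagens Col13a1, Col17a1 and Col25a1 lay between 0.01 and 0.02, the short-chain collagens Col8a1 and Col8a2 at 0.11 and 0.06, and Col7a1 and Col26a1 at 0.00 and -0.04.

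Different probes of a gene gave similar ratios. For 11 genes with several tested probes, the highest and lowest probe differed by at most 0.09, as in Col23a1 and Col25a1. The dye coefficient was larger than the mean ratio in 16 of 38 collagen genes. Col8a2, which encodes a chain of the short-chain collagen VIII, gave 0.32 and 0.49 with the Sox2-Tbx2LOF pool in Cy3 but -0.45 and -0.13 with that pool in Cy5. Its dye coefficient was -0.35 (limma adjusted p = 0.0314), and that of Col16a1 was -0.21 (adjusted p = 0.0467). These 2 of 38 genes stood beside 4.13% of all genes. The dye term in the fit and the balanced dye swap remove this part from the mean ratios.

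The effect of genotype did not differ detectably between sexes. In the female and the male arrays, the mean ratios were 0.54 and 0.30 for Col28a1, 0.22 and 0.45 for Col1a1, 0.31 and 0.15 for Col3a1, and -0.26 and -0.24 for Col22a1. No collagen gene had an adjusted p under 0.05 for the sex difference in limma, and 1 (Col25a1, female minus male -0.28, adjusted p = 1.00) had an unadjusted p under 0.05. The SE of this difference was 0.113 for Col1a1, from 2 arrays per sex.

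Genes that make, bind or degrade collagen were read from the same fit. Their lists were chosen with earlier results of these data known. The paper had already reported enhanced Tectb expression in Sox2-Tbx2LOF cochleae at E18.5. Counts from the lists are therefore not independent of those results. Of 96 genes in 8 lists, 88 were tested, 1 was called (Tectb), beside 0.304% of all genes, and 2 had an adjusted p under 0.05, both higher, beside 1.25% of all genes. At an unadjusted limma p under 0.05, 10 of the 88 were higher and 4 lower, beside 4.09% higher and 4.25% lower of all genes. The second gene was Adamts2, which encodes the enzyme that cuts the amino-terminal propeptide from collagens I, II and III. Its ratios were 0.39, 0.21, 0.58 and 0.14, with a mean of 0.33 (95% interval 0.21 to 0.45, limma adjusted p = 0.0260). For Adamts2, Tectb and Lox the values are those of the brighter of 2 tested probes, and the other probe is not reported here. Adamts2 lies on chromosome 11, 0.779 Mb from Col23a1.

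No other gene of procollagen trimming and crosslinking passed. Besides Adamts2, 3 genes of that list, named here after their values were seen, had ratios of 1 sign on all 4 arrays. Adamts14, another procollagen N-proteinase, gave -0.21, -0.30, -0.09 and -0.15 (limma adjusted p = 0.233). Lox, a lysyl oxidase that crosslinks collagen, gave -0.36, -0.09, -0.13 and -0.25 (limma adjusted p = 0.225). Pcolce2, an enhancer of procollagen C-proteinase, was higher on all 4, at 0.20, 0.19, 0.33 and 0.14 (limma adjusted p = 0.109). The median was 0.04 over the 10 tested genes of that list, 0.01 over 13 genes of prolyl and lysyl modification and 0.01 over 12 genes of folding and export. In the last list Serpinh1, which encodes the collagen chaperone HSP47, gave 0.37, 0.07, -0.06 and -0.06, with a mean of 0.08 (95% interval -0.08 to 0.24). Medians were 0.03 over 10 receptors, 0.06 over 13 fibril-binding proteoglycans and glycoproteins, 0.04 over 16 basement membrane partners, 0.07 over 5 tectorial membrane glycoproteins and 0.07 over 9 proteases and inhibitors. None of these lists held a gene with an adjusted p under 0.05 other than Tectb.

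**Figure D4:**
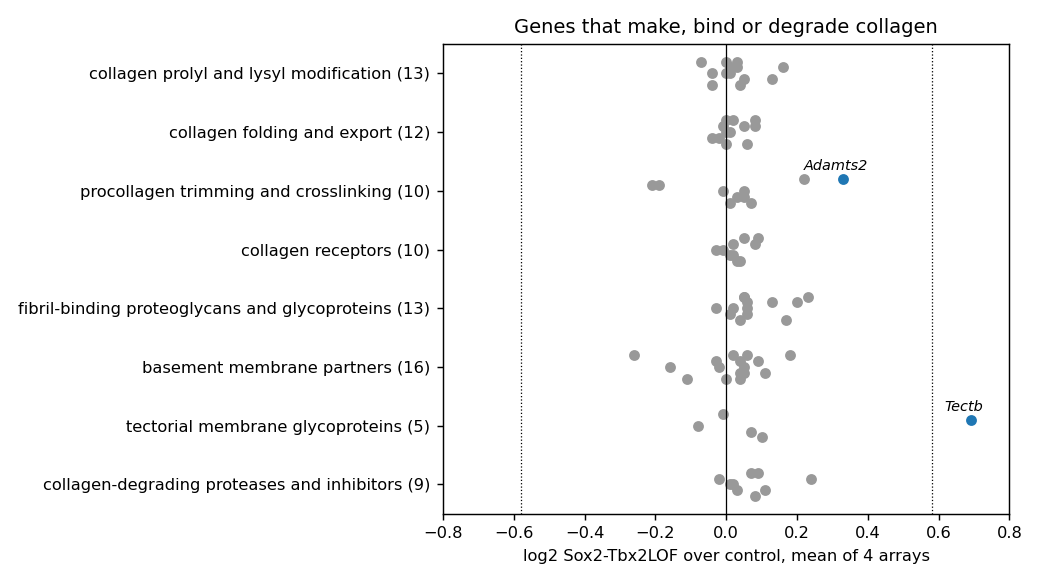
Mean log2 ratio of Sox2-Tbx2LOF over control (x axis, 4 arrays) for the 88 tested genes of 8 collagen-related lists, 1 point per gene, with the number of genes in brackets. Blue points have a limma adjusted p under 0.05 and dotted lines mark a 1.5-fold change. Only Adamts2 (0.33) and Tectb (0.69) are blue, and Tectb alone lies beyond a dotted line.

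None of the genes on the remaining marker lists had an adjusted p under 0.05. The 6 genes of endothelium and pericytes had a median of 0.06, with summed levels of 27025 to 29719 in Sox2-Tbx2LOF and 26594 to 29814 in control pools. The 6 epithelial genes had a median of 0.07 and summed levels of 38022 to 42395 against 36135 to 42833. Among them Sox2 gave 0.31, 0.11, 0.27 and 0.25 (limma adjusted p = 0.0876), and the median includes it. Only Sox2-Tbx2LOF pools carried the recombinase at the Sox2 gene, and the part of that allele in the Sox2 ratio was not tested. The 4 melanocyte genes had a median of -0.14 and summed levels of 3437 to 4948 against 3167 to 6717, and among them Pmel gave -0.49, -0.21, -0.37 and 0.08 (limma adjusted p = 0.145).

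Of the 6 collagen genes that were not tested, Col4a3, Col6a5 and Col19a1 were not well above background on any array. Col10a1, the collagen of hypertrophic cartilage, was well above background on 1 control array, Col6a4 on 2 arrays of either genotype and Col15a1 on 2 Sox2-Tbx2LOF arrays and 1 control array. Values near background limit what can be said of them, and no ratio is given.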

How the data were processed

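Each deposited scanner file gives the intensity of every spot in both channels, read by the authors in Agilent Feature Extraction (version 10.7.3.1) and not normalized, and the software's log10 ratio of red over green, which the authors deposited corrected for background and dye. The unit and steps of the deposited series matrix are not given in the sources used here. Its values were read as signed fold ratios of Sox2-Tbx2LOF over control, since on that reading they correlated with the ratios of the scanner (r = 0.917 to 0.941).

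Background was corrected with normexp (offset 50) and ratios were normalized by loess within arrays in limma 3.58.1 (R 4.3.3). Control spots had no weight in loess, flagged spots (3.23% to 3.56%) were dropped, no spot was saturated, and the spots of a probe were averaged. A probe was tested when well above background on at least 3 of 4 arrays in either channel, in over 0.5 of its spots. Log2 ratios were tested with lmFit and eBayes, with a dye term and Benjamini-Hochberg adjustment over 28104 probes. Tests were two-sided. Channel levels are log2 values after loess and quantile normalization of average brightness; they serve to compare pools for 1 probe, not probes with each other. Summed levels of a marker list add the levels of its probes before the log, so they mostly follow its brightest probes. The number of arrays limits the precision. Symbols came from the array files, updated by RefSeq accession for 28328 probes (GRCm38.p6, no coordinates used), and positions from the array files (mm9). In simulated data of 28104 probes with 4 arrays, all 100 probes changed 1.5-fold and all 100 changed 2-fold passed the adjusted p threshold. So did 31 of 27904 unchanged probes (0.111%). These simulated counts did not apply the minimum fold, so they do not show how often such probes would be called. Their noise was drawn independently for each array, with the spread estimated in the same fit. They therefore do not show how often such changes would be found in real pools.

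Named collagen genes were those with an adjusted p under 0.05, all members of 3 classes (fibrillar, basement membrane, and collagens II, IX and XI) and the 4 highest and 4 lowest ratios. All other tested members were added after their values were seen. Members and gene lists were chosen with earlier results of these data known. Some genes of the marker lists are not reported here. All arrays shared 1 slide and 1 scan. Alternatives are given in the closing section.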

Additional observations from a re-analysis of the deposited data

Results flagged for a closer look

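Of the ratios of 38 collagen genes and 4 class medians, 1 held an array that stood far from the others. For Col14a1 the log2 ratio of Sox2-Tbx2LOF over control was 0.59 on array 1, and the gap to the next array made up 0.913 of the range over the 4 arrays. By chance about 1 in 20 such groups passes the limit that was applied to the gap.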

How the results depend on the processing

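The count of 0 called collagen genes held under all settings tried except an offset of 10 and no minimum fold, where Col28a1 gave a count of 1. The count of collagen genes with an adjusted p under 0.05, 1 in the report, was 0 with the scanner software log ratio, the series matrix values, no filter, the strict filter (which leaves Col28a1 out), no dye term and unpaired limma on channel levels. It was 2 with median centring (Col28a1 and Col1a1), 3 with the mean over the probes of a gene (also Col22a1), and 0 to 2 when 1 array was left out. Col28a1, Col1a1 and Col22a1 have a single probe each, so nothing was averaged for them. All probes called, 70 in the report, were 124 with the scanner software log ratio, 1 with the series matrix values, 276 with no minimum fold and 66 to 106 when 1 array was left out; SAM called 59. Where 38 genes were tested, intervals of 36 to 38 of them lay inside a 1.5-fold change, and those that did not belonged to Col28a1, Col1a1 or Col6a6. Class medians moved by less than their spread between arrays. Over all tested collagen genes and settings, 520 ratios kept their direction where called and their side of the threshold, 6 lost and 5 gained the adjusted threshold. Slide and scan could not be run as a block. No paired analysis by replicate number was possible because each array is itself the pair; the fit without this pairing called 57 probes. Dim probes, Col28a1 among them, have compressed ratios.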
